A study of Homo sapiens with 2 samples.

Results

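The genes described here are the matrix metalloproteinases (MMP), the ADAM and ADAMTS proteases and their tissue inhibitors (TIMP). A gene was included when its symbol was MMP, ADAM, ADAMTS or TIMP followed by digits and at most 1 letter, and that symbol rule uses no expression value. The rule found 71 of the 26228 gene names shared by the libraries: 24 MMP, 24 ADAM, 19 ADAMTS and 4 TIMP genes. RNA-seq was performed on PLC cells, a human liver cancer line, with 1 library per condition. The EV library came from cells that carried the empty pCDH vector and whose genotype is labelled WT, and the PRSS35 library came from cells labelled as over-expressing PRSS35, a secreted protein of the trypsin-like serine protease family. Both lines were made by lentiviral infection and drug selection, and both are labelled as having had no treatment. The comparison shows which of these proteases and inhibitors had a different transcript level when PRSS35 was over-expressed. Since each condition had 1 library, no difference can be checked against replicates, and p-values are not given.

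Values are FPKM, fragment numbers scaled by transcript length and by the size of the library, each with the lower and upper bound that Cufflinks puts around it. These bounds describe the error of counting and assigning fragments in 1 library, not how cultures vary. Log2 changes are the log2 of FPKM + 1 in PRSS35 over FPKM + 1 in EV, on which low genes show less change than their FPKM ratio, and a gene was called at 2-fold on that scale. FPKM ratios are given without the added 1, with an interval built from both pairs of bounds. Genes are called expressed where their mean FPKM reached 1. Read totals were not used here. Where the bounds corresponded to a whole number of fragments, at 12 of the 38 members above 0 in EV and 9 of 34 in PRSS35, 3 fragments corresponded to between 0.0136 and 0.113 FPKM. The targeted gene PRSS35 had an FPKM of 0.643 (bounds 0.445 to 0.841) in EV and 1836 (bounds 1759 to 1912) in PRSS35, a log2 change of 10.13. Of the hepatocyte markers listed, 9 of 10 were expressed, with a summed FPKM of 6194 in EV and 7489 in PRSS35. The highest, which made up most of the sum, were KRT18 (2781 and 2315), SERPINA1 (2528 and 4239) and APOA1 (576 and 494). The lowest were ALB (4.05 and 5.21), TTR (1.56 and 1.61) and FGB (0.598 and 0.540), of which FGB was not expressed. Of the stellate cell and fibroblast markers 1 of 10 was expressed, PDGFRB (1.02 and 1.27 FPKM), and the list had a summed FPKM of 2.35 and 2.55. Under 1 FPKM, COL1A1 (0.699 and 0.754) and THY1 (0.480 and 0.404) were the highest, while DCN and LUM were listed at 0. Of the endothelial markers 0 of 7 were expressed (summed FPKM 0.0980 and 0.0610, with KDR and TEK listed at 0). Of the myeloid markers 3 of 10 were expressed (CD68 at 297 and 278 FPKM, LYZ at 94.0 and 104, and S100A9 at 2.33 and 5.12). The summed FPKM of the list was 394 and 387, while PTPRC and CD163 were listed at 0. The CD68 value, the largest part of that sum, came from a locus joined with another gene name in both libraries, so the level of CD68 itself is uncertain. Whether other cells had a part in any result was not tested, and in RNA from a whole culture fewer cells of a type and less RNA per cell cannot be told apart.

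Metalloproteinases of these families cut proteins with a zinc ion held by histidines in the active site, where a glutamate activates the water that splits the peptide bond. MMPs are best known for degrading extracellular matrix, ADAMs for releasing growth factors, cytokines and receptors from the cell surface, and ADAMTS proteases for processing procollagen, proteoglycans and von Willebrand factor. TIMPs bind the active site and block it, and in liver the balance between proteases and TIMPs is known for its part in matrix turnover and fibrosis. Most of the enzymes are made with a prodomain that keeps them inactive, which furin-type convertases remove from ADAMs, membrane-type MMPs and MMP11 inside the cell.

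The active site is where the family relation can be read in sequence, and it is shown for the 4 expressed proteases whose bounds did not overlap between the libraries, for the sheddase ADAM17 and for ADAM11, which is expressed and lacks it. Each run is the coding strand from 5′ to 3′ on GRCh37, the same assembly as hg19, as joined by the GENCODE v44lift37 coding annotation. Capitals mark the codons of the 3 histidines and the glutamate, or the codons that lie at the same places in ADAM11.
MMP9: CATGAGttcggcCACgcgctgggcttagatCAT
MMP11: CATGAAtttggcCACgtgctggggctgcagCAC
MMP15: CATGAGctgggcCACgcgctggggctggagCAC
ADAM15: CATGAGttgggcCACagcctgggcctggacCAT
ADAM17: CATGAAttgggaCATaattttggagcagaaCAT
ADAM11: CAGACGctgggaCAGaacctgggcatg
The runs lie at chr20:44641092-44641124 (plus strand, codons 401 to 411) for MMP9, chr22:24123072-24123104 (plus, codons 215 to 225) for MMP11 and chr16:58074467-58074499 (plus, codons 259 to 269) for MMP15. Those of the ADAMs lie at chr1:155029471-155029503 (plus, codons 348 to 358) for ADAM15, chr2:9650207-9650239 (minus, codons 405 to 415) for ADAM17 and chr17:42851896-42851922 (plus, codons 372 to 380) for ADAM11, each within 1 coding exon. The ADAM11 run holds neither of the 2 histidines that its 27 bases cover, nor the glutamate. The zinc-binding motif of the metzincins, searched with its glycine in the translated coding sequence, was found in 47 of the 60 MMP, ADAM and ADAMTS genes whose coding sequence could be read, and in 0.299% of 19369 coding genes. ADAMTS proteases that carry another residue in place of the glycine are not counted by this search. Among the 13 expressed members with a coding sequence, 9 held the motif. In 8 of these 9 a furin-type stretch, that is arginine, any residue, lysine or arginine, then arginine, came before the site, and MMP9 was the exception. Of all coding genes read, 26.4% held such a stretch anywhere.

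Of the 71 genes, 14 were expressed and 30 were listed at 0 in both libraries. A further 27 lay above 0 in at least 1 library with a mean under 1 FPKM. The expressed genes were 5 MMPs, 6 ADAMs, 3 TIMPs and no ADAMTS. A value listed at 0 can be a failed estimate as well as an absence of fragments, and 3 members in EV and 3 in PRSS35 were listed at 0 under identifiers that Cufflinks gave to loci assembled from reads. In the plot of all members by role, most secreted collagenases, ADAMs without the zinc site and ADAMTS genes sit at or near 0 in both libraries.

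**Figure D1:**
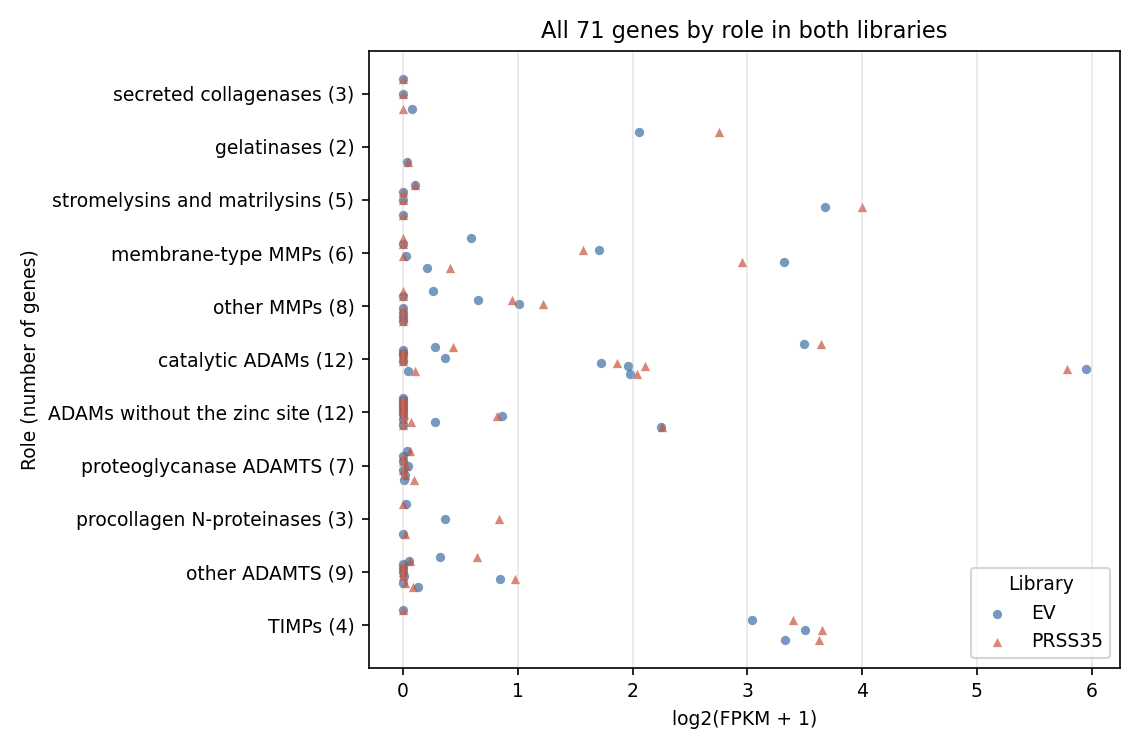
Level of all 71 genes by role, as log2(FPKM + 1) on the horizontal axis; circles are the EV library and triangles the PRSS35 library, with 1 pair of symbols per gene. ADAM15 lies farthest to the right with 60.7 FPKM in EV and 54.3 in PRSS35, and no ADAMTS gene reaches a mean of 1 FPKM.

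ADAM15 was the highest member in both libraries. This membrane protease with a disintegrin domain lies at chr1:155023748-155035252 in hg19. It had 60.7 FPKM (bounds 57.6 to 63.8) in EV and 54.3 (bounds 51.5 to 57.0) in PRSS35, which ranked it 2162 and 2336 among all names. It held 71.9% of the summed FPKM of the ADAM family in EV and 68.0% in PRSS35, and its bounds were apart from those of the next member in both. MMP11, TIMP2, ADAM9, TIMP1 and MMP15 followed in EV with 8.99 to 11.8 FPKM, and neighbours in that order had overlapping bounds. In PRSS35, MMP11 stood apart above TIMP2, ADAM9 and TIMP1, while MMP15 came below TIMP3. TIMP3 had 7.22 FPKM in EV, below all of these. The other 7, which are MMP9, ADAM11, ADAM17, ADAM10, ADAM19, MMP17 and MMP23A, lay between 1.01 and 3.75 FPKM in EV and between 1.33 and 5.74 in PRSS35.

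**Figure D2:**
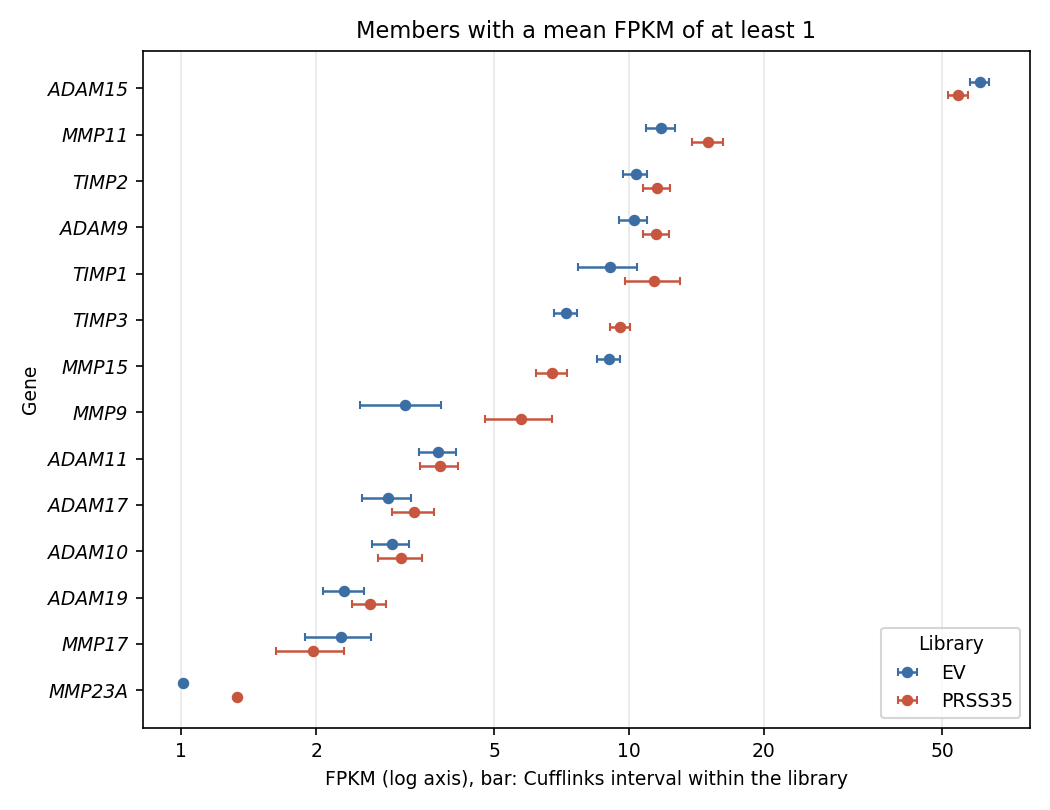
FPKM of the 14 expressed members on a log axis, EV in blue and PRSS35 in red, with bars for the Cufflinks bounds within each library; MMP23A has no bars because its value sums 2 loci. The bars of MMP9, MMP11 and TIMP3 lie apart with PRSS35 to the right, and those of ADAM15 and MMP15 lie apart with PRSS35 to the left, an order that turns for ADAM15 and MMP15 under scaling by the FPKM sum of each library.

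None of the 14 expressed members was called at 2-fold in either direction. Of all 11118 expressed genes, 2.73% were called higher and 2.48% lower, so a count of 0 among 14 lies near the background. The log2 changes of the 14 ran from -0.37 to 0.70. Their median was 0.15, against a median of 0.06 over all expressed genes. Of the 14 members 11 were above 0, where 6688 of the 11118 expressed genes were so. The members above 0 numbered 10 under upper quartile scaling and 9 under centring on the median change, so the count is not read as a result about the members. The bounds of the libraries did not overlap for 5 of the 13 members with bounds in both. MMP9, MMP11 and TIMP3 were higher in PRSS35, or 23.1% of the 13, where 24.8% of all expressed genes with bounds were higher by that rule. ADAM15 and MMP15 were lower, or 15.4% of the 13, where 14.9% of all such genes were lower. Both shares are near the background. Of the 14 members, 5 had an assembled identifier in both libraries, 2 in EV alone and 5 in PRSS35 alone, and whether that bears on their changes was not tested. When FPKM was scaled by the sum of each library, the median over all expressed genes moved to a log2 change of 0.68 and all 14 members were above 0, with ADAM15 at 0.54, MMP15 at 0.26 and MMP17 at 0.35. Loci without a gene name held 65.3% of the summed FPKM in EV and 44.9% in PRSS35. All loci summed to 2469030 FPKM in EV and 1508530 in PRSS35, while named loci summed to 856880 and 831520, which are closer to each other.

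**Figure D3:**
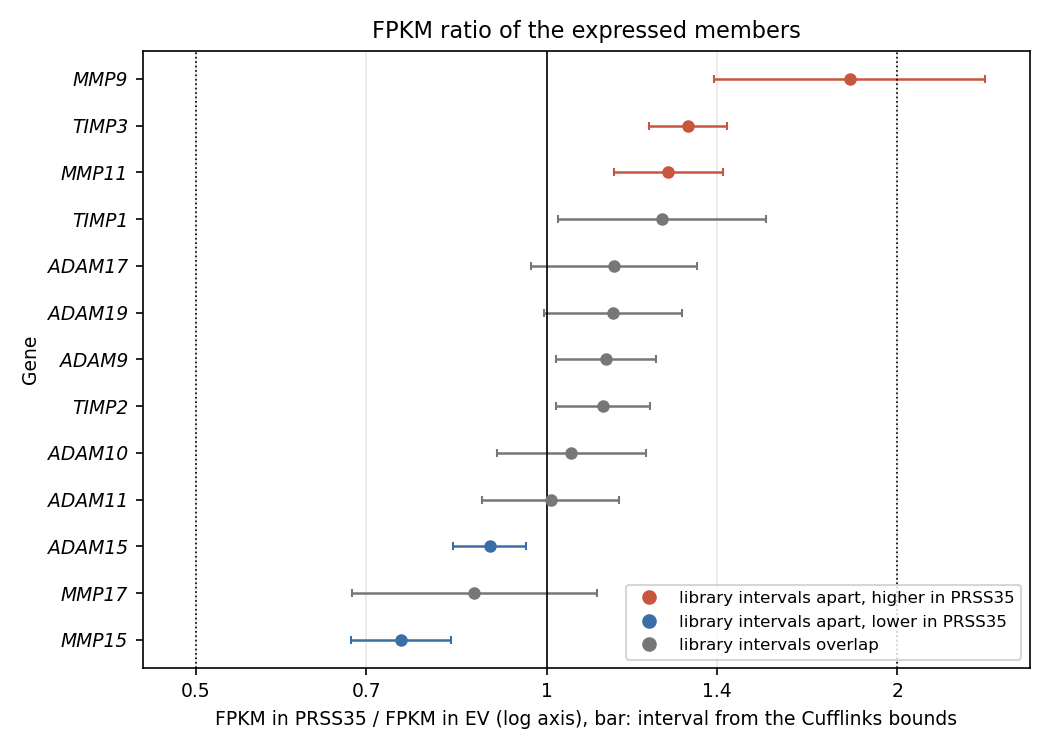
FPKM in PRSS35 over FPKM in EV for the 13 expressed members with bounds, on a log axis; bars are intervals from the Cufflinks bounds, the solid line marks equal levels and the dotted lines 2-fold. MMP9 lies farthest to the right at 1.82 and MMP15 farthest to the left at 0.750, and no point reaches a dotted line; under scaling by the FPKM sum of each library, MMP9 passes 2-fold and ADAM15, MMP15 and MMP17 turn to higher.

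Among the expressed MMPs, the gelatinase MMP9 had the highest ratio. MMP9, which degrades denatured collagen and basement membrane collagen, lies at chr20:44637547-44645200. Its FPKM was 3.16 (bounds 2.51 to 3.80) in EV and 5.74 (bounds 4.76 to 6.73) in PRSS35. The ratio was 1.82 (interval 1.39 to 2.38) and the log2 change 0.70, resting on about 95.1 fragments in EV and 135 in PRSS35. The MMP9 locus had an assembled identifier in both libraries, so the transcript models behind its values may differ. Whether that bears on the change was not tested. The other gelatinase, MMP2, was at 0.0222 and 0.0291 FPKM, which correspond to 0.737 and 0.950 of a fragment. MMP11, or stromelysin 3, an MMP that is activated inside the cell, was the highest MMP and lies at chr22:24115036-24126503. It had 11.8 FPKM (bounds 10.9 to 12.7) in EV and 15.0 (bounds 13.8 to 16.2) in PRSS35, a ratio of 1.27 (interval 1.14 to 1.42) and a log2 change of 0.32. Its locus carried an annotated identifier in EV, on about 728 fragments, and an assembled one in PRSS35, on about 655, so the transcript models behind its values may differ, and whether that bears on the change was not tested. MMP11 held 41.7% of the summed FPKM of the MMP family in EV, which was 28.2, and 48.0% in PRSS35, which was 31.2.

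Of the 6 membrane-type MMPs, which are anchored at the cell surface, 2 were expressed, and only MMP15 had bounds apart, lower in PRSS35. MMP15 (chr16:58059282-58080804), which has a transmembrane domain, had 8.99 FPKM (bounds 8.47 to 9.52) in EV and 6.74 (bounds 6.21 to 7.28) in PRSS35, a ratio of 0.750 (interval 0.679 to 0.827) and a log2 change of -0.37. MMP17, which is held by a lipid anchor, had 2.27 FPKM in EV and 1.97 in PRSS35, and its bounds overlapped. Each of these loci kept its annotated identifier in only 1 library, EV for MMP15 and PRSS35 for MMP17, and both log2 changes turn positive under scaling by the FPKM sum, as given above. MMP15 rested on about 1171 fragments in EV and 632 in PRSS35, and whether the change of identifier bears on its values was not tested. MMP14, the main activator of MMP2, was low at 0.153 and 0.325 FPKM with overlapping bounds. MMP25, named after its values were seen, had 0.511 FPKM on about 12.0 fragments in EV and was listed at 0 in PRSS35 under an assembled identifier. It overlaps MMP25-AS1 (7.09 and 6.78 FPKM), and reads from the 2 genes cannot be told apart where strand is not used. MMP23A and MMP23B are near-identical neighbours on chromosome 1 and share a joined locus, so their values are uncertain. The joined locus had 0.572 FPKM in EV and 0.928 in PRSS35, with overlapping bounds. Summed with a locus of its own, MMP23A reached 1.01 and 1.33 FPKM, and the annotation gives it as a pseudogene.

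The secreted MMPs of chromosome 11 were at or near 0. This cluster of 9 genes at chr11:102391239-102826463 holds the collagenases MMP1, MMP8 and MMP13, the stromelysins MMP3 and MMP10, the matrilysin MMP7, and MMP12, MMP20 and MMP27. Of the 9, 7 were listed at 0 in both libraries, MMP13 among them. The highest value was 0.0756 FPKM, for MMP7 in PRSS35, against 0.0755 in EV. Genes on either side were expressed. TMEM123, 67.5 kb before the cluster, had 27.4 FPKM in EV and 26.4 in PRSS35, and DCUN1D5, 95.0 kb after it, had 47.0 and 4.81. Both were named after their values were seen.

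**Figure D4:**
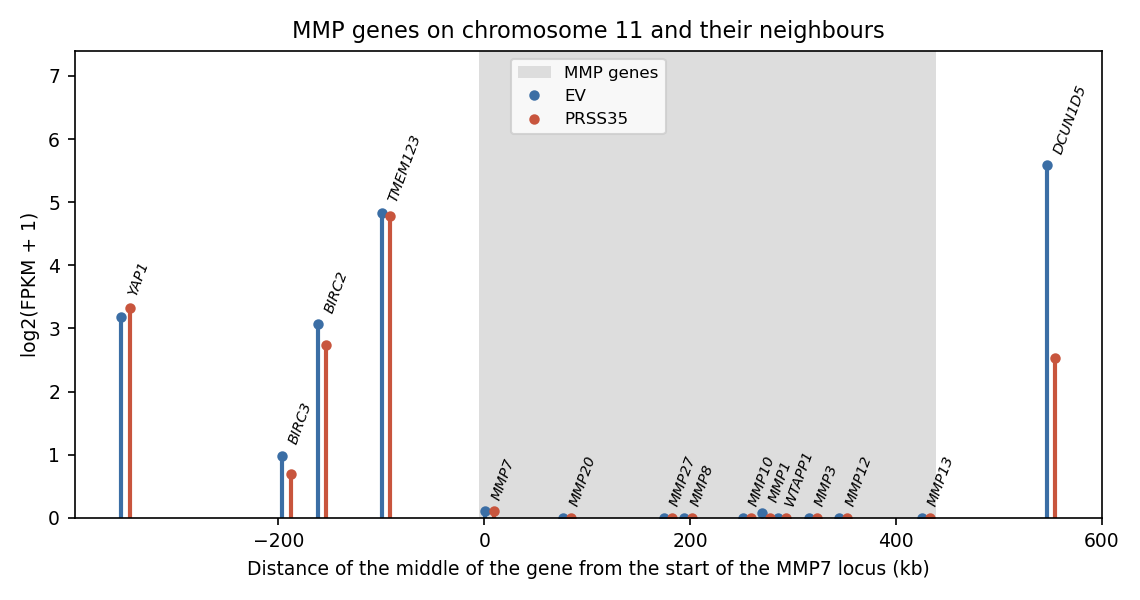
Level as log2(FPKM + 1) of all named loci around the MMP cluster of chromosome 11, against the distance in kb of each gene's middle from the start of the MMP7 locus; blue is EV, red is PRSS35, and the grey band covers the MMP genes. The 9 MMP genes stay at or under 0.0756 FPKM between expressed neighbours such as TMEM123 at 27.4 FPKM in EV and 26.4 in PRSS35.

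The catalytic ADAMs were the highest protease group by summed level. Of 12 such genes, 5 were expressed and 4 were listed at 0 in both libraries. ADAM15 had a ratio of 0.894 (interval 0.832 to 0.961) and a log2 change of -0.16, which turns positive under scaling by the FPKM sum. Its locus lies within that of LOC100505666, which was listed at 0 in EV and had 3.77 FPKM in PRSS35. The other 4 had log2 changes between 0.05 and 0.16, and their bounds overlapped. ADAM10 and ADAM17, the main sheddases of Notch receptors and of TNF and EGF receptor ligands, had 2.95 and 2.89 FPKM in EV, and 3.09 and 3.31 in PRSS35. Their ratios were 1.05 (interval 0.906 to 1.22) for ADAM10 and 1.14 (interval 0.970 to 1.35) for ADAM17. The ADAM10 locus had an annotated identifier in EV, on about 437 fragments, and an assembled one in PRSS35, on about 317. In the PRSS35 library the ADAM17 locus overlaps that of IAH1 (53.8 FPKM). ADAM9, a further sheddase, had 10.2 FPKM (bounds 9.51 to 10.96) in EV and 11.5 (bounds 10.7 to 12.3) in PRSS35, and ADAM19 had 2.31 and 2.64. Next to ADAM9 on chromosome 8 lie 5 ADAM genes known mainly from testis, all listed at 0 in both libraries. ADAM12, an ADAM linked to activated fibroblasts, was at 0.0304 and 0.0736 FPKM. ADAM21, named after its values were seen, had 0.286 FPKM on about 21.0 fragments in EV and was listed at 0 in PRSS35.

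Of the 12 ADAMs grouped as lacking the zinc site, 8 were listed at 0 in both libraries and 1 was expressed. ADAM11, a non-catalytic member known from the nervous system, had 3.75 FPKM (bounds 3.39 to 4.11) in EV and 3.78 (bounds 3.42 to 4.14) in PRSS35. Its ratio of 1.01 (interval 0.880 to 1.15) was the closest to 1 of the 13. ADAM1A, annotated as a pseudogene and named after its values were seen, had 0.211 FPKM in EV on about 17.0 fragments and 0.0495 in PRSS35 on about 4.00, with bounds that did not overlap.

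No ADAMTS gene was expressed, and 6 of the 19 were listed at 0 in both libraries. The family summed to 1.56 FPKM in EV and 2.57 in PRSS35. ADAMTS13, which cleaves von Willebrand factor, was the highest, with 0.795 FPKM (bounds 0.456 to 1.13) in EV and 0.965 (bounds 0.757 to 1.17) in PRSS35. Its locus overlaps that of REXO4 (23.5 and 28.3 FPKM). ADAMTS2, a procollagen N-proteinase, had 0.287 FPKM in EV and 0.779 in PRSS35 with overlapping bounds. ADAMTS7, which cleaves cartilage oligomeric matrix protein, had 0.250 FPKM (bounds 0.171 to 0.329) in EV and 0.564 (bounds 0.353 to 0.775) in PRSS35, so its bounds were apart. Both ADAMTS2 and ADAMTS7 were named after their values were seen, and both had assembled identifiers in PRSS35 alone, where the fragments behind ADAMTS7 were about 28.5 against 40.0 in EV. The aggrecanases ADAMTS4 and ADAMTS5 were at 0.0314 and 0.0156 FPKM, and at 0 in both libraries, respectively.

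The inhibitors TIMP1, TIMP2 and TIMP3 were expressed and TIMP4 was listed at 0 in both libraries. The family summed to 26.6 FPKM in EV and 32.5 in PRSS35. TIMP3, the TIMP that binds matrix and also inhibits ADAM17, lies at chr22:33196802-33259028. It had 7.22 FPKM (bounds 6.80 to 7.65) in EV and 9.56 (bounds 9.08 to 10.0) in PRSS35, a ratio of 1.32 (interval 1.23 to 1.43) and a log2 change of 0.36. Its locus kept the annotated identifier in both libraries and lies within SYN3 (0.495 and 0.511 FPKM). TIMP1, an inhibitor of most secreted MMPs, had 9.05 FPKM (bounds 7.69 to 10.4) in EV and 11.4 (bounds 9.76 to 13.0) in PRSS35. TIMP2, which also takes part in the activation of MMP2 by MMP14, had 10.3 FPKM (bounds 9.71 to 10.96) in EV and 11.5 (bounds 10.7 to 12.4) in PRSS35. The bounds of TIMP1 and of TIMP2 overlapped between the libraries, with log2 changes of 0.30 and 0.15. Each of these 2 loci had an annotated identifier in EV and an assembled one in PRSS35. TIMP2 rested on about 1091 fragments in EV and 796 in PRSS35, though its FPKM was higher in PRSS35. Whether the change of identifier bears on these values or on the family sum was not tested.

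Other genes of the pathway were read from 7 lists of inhibitors, cofactors, activators and substrates. Of 80 such genes found in both libraries, 40 were expressed. On the scale with the added 1 FPKM 0 were called at 2-fold, which lies near the background of 2.73% higher and 2.48% lower over all expressed genes. The counts of genes with bounds apart in the lists below stand against 24.8% higher and 14.9% lower over all expressed genes with bounds, and with 1 to 13 such genes a list none of them is read as a result about the list. Of 12 other inhibitors and regulators, 6 were expressed with a median log2 change of -0.06, and the bounds were apart for 2 higher (33.3%) and 1 lower (16.7%). The highest were BSG, an inducer of MMP expression, with 884 FPKM in EV and 832 in PRSS35, CST3, a cysteine protease inhibitor, with 392 and 384, and CD151, a tetraspanin, with 291 and 263. A2M, which traps proteases of all classes, had 171 FPKM (bounds 164 to 179) in EV and 195 (bounds 187 to 204) in PRSS35. RECK, a membrane-anchored inhibitor of MMPs, had 0.630 FPKM (bounds 0.490 to 0.771) in EV and 1.48 (bounds 1.04 to 1.93) in PRSS35, with a log2 change of 0.61. Its FPKM ratio of 2.35 (interval 1.62 to 3.43) is past 2-fold, but it was not called on the scale with the added 1 FPKM. RECK is 1 of the 2 counted higher, and it reached a mean of 1 FPKM only through its value in PRSS35. Its locus had an annotated identifier in EV, on about 80.2 fragments, and an assembled one in PRSS35, on about 43.7, and whether that bears on the change was not tested.

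Of 11 cofactors of ADAM17 and ADAM10, 10 were expressed, with a median log2 change of -0.05 and bounds apart for 1 higher and 1 lower (10.0% each). PDIA6, a disulfide isomerase, was the highest with 139 FPKM in EV and 181 in PRSS35. The tetraspanins TSPAN17 (88.2 and 83.9 FPKM) and TSPAN15 (38.9 and 38.1), which escort ADAM10, came next. The iRhoms RHBDF1 and RHBDF2, which carry ADAM17 to the cell surface, had 14.9 and 18.3 FPKM in EV, and 13.7 and 17.5 in PRSS35, with overlapping bounds. Of 7 activators of proenzymes, 4 were expressed, with bounds apart for 1 higher, PCSK7, at 16.3 and 19.5 FPKM. FURIN had 238 FPKM in EV, where its locus was joined to FES, and 234 in PRSS35. PCSK6, a related convertase, had 7.71 and 7.37, from a locus joined with another gene name in both libraries.

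Of 22 membrane proteins known to be shed, 14 were expressed, with a median log2 change of 0.13, and of the 13 with bounds 5 were apart and higher (38.5%) and 2 apart and lower (15.4%). APP (97.7 and 108 FPKM), the proteoglycan SDC1 (102 and 118) and its relative SDC4 (75.3 and 68.4) were the highest. Of 13 matrix substrates 4 were expressed, led by FN1 (117 and 126 FPKM), LAMA5 (15.5 and 10.6) and LAMC1 (8.29 and 9.67), with bounds apart for 2 higher and 1 lower of the 4. The lower one was LAMA5, whose locus was joined with another gene name in both libraries, so its own level is uncertain. ADAMTSL5 was the 1 expressed gene of 6 ADAMTS-like genes, which lack the protease domain, with 15.7 FPKM (bounds 14.3 to 17.2) in EV and 8.62 (bounds 7.88 to 9.37) in PRSS35, a log2 change of -0.80. Its locus was assembled from reads in both libraries, on about 474 fragments in EV and 535 in PRSS35. THSD4, of the same list, had 0.317 and 0.439 FPKM. Of 9 other metzincins, 1 was expressed, BMP1, the procollagen C-proteinase, with 7.43 and 7.22 FPKM and overlapping bounds, and its relative TLL2 had 0.687 and 0.995.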

How the data were processed

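Total RNA from PLC cells was sequenced by the authors on a HiSeq platform, with 1 library each for EV and PRSS35. The submitters' processing notes name hg19, dm6, TopHat2 2.1.0 and Cuffdiff 2.2.1, and the study's methods name Cufflinks for the estimates; the annotation release and options are not given in the sources used here. The deposited values are FPKM per locus, made by the authors, with lower and upper bounds. No counts were used and no count model was fitted.

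Gene names were used to match loci across the libraries. Those on alternate haplotypes were left out, FPKM of loci sharing a name was summed, and a joined locus was counted for each of its names. The upper bound was taken as 2 SD above FPKM, and implied fragments are the square of FPKM over that SD. They counted as whole within 0.01, below 200.

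The gene families and the gene lists were chosen with earlier results of these data known, and the symbol rule then gave the members. The rule named members with a mean FPKM of at least 1, members whose locus was joined, MMP2, MMP9, MMP13, ADAM12, ADAMTS4, ADAMTS5, PRSS35, the 3 highest genes of each list of other genes of the pathway, RECK, A2M, BSG, RHBDF1, RHBDF2 and FURIN, and any gene called at 2-fold. Members at 0 in one library and at least 1 FPKM in the other would also have been named, and there were none. Other members were named after their values were seen. PCSK7 and ADAMTSL5 were named as among the 3 highest of their lists. ADAMTSL2 and TLL1, also among the 3 highest of theirs, had a mean of 0.00461 and 0.0302 FPKM and are named only here.

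Alternatives were scaling by the sum or the upper quartile, pseudocounts of 0.1 and 5 FPKM, centring, the highest locus per name, leaving out joined loci, no filter, a mean of at least 5 FPKM, and 1.5-fold. Sequences were read from GRCh37 with GENCODE v44lift37, leaving out coding sequences with an internal stop. Python 3.11.15, numpy 2.4.6, pandas 2.3.3 and matplotlib 3.10.9 were used.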

Additional observations from a re-analysis of the deposited data

How the results depend on the processing

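No paired analysis was possible because there was only 1 library on each side of the comparison. The count of 0 members at 2-fold was kept under pseudocounts of 0.1 and 5 FPKM, upper quartile scaling, centring, the highest locus per name, joined loci left out, no filter and a mean of at least 5 FPKM, where 7 members remained. Without the filter the added 1 FPKM was kept, and on that scale genes well under 1 FPKM can hardly be called. ADAMTS2, ADAMTS7 and ADAM1A, with FPKM ratios of 2.71, 2.26 and 0.235, were not called there. The pseudocount of 0.1 was applied to expressed genes only. Scaling by the FPKM sum of each library moved the members' median log2 change to 0.67 beside 0.68 for all genes. It reversed ADAM15 to 0.54, MMP15 to 0.26 and MMP17 to 0.35, and called 1 member higher (MMP9, 1.28). It also put the bounds apart for 13 members higher and 0 lower, where 87.8% and 1.5% of all genes were so. That scaling called 3 other genes of the pathway higher (PDIA6, IL6R and AXL). At 1.5-fold, 1 member (MMP9) and 2 other genes (RECK and IL6R) were higher and 1 (ADAMTSL5) was lower; a pseudocount of 0.1 called 1 other gene (RECK) higher. Of all genes, 303 were higher and 276 lower as reported, 192 and 162 with a pseudocount of 5, 183 and 184 without joined loci, 202 and 169 at a mean of at least 5, 581 and 475 at 1.5-fold, and 1273 and 180 under scaling by the sum, where the share of calls that were higher went from 52.3% to 87.6%. Without the filter, ADAMTS7 and ADAM1A joined the genes with bounds apart, making 4 higher and 3 lower of 30, where 19.6% and 11.7% of all genes were so. The cause of these differences was not tested. Depth limits what can be said of members under about 0.113 FPKM.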
